A study of Arabidopsis thaliana with 4 samples.

Results

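The tops of chromosomes 2 and 4 are the short-arm ends of the 2 Arabidopsis thaliana chromosomes that carry the nucleolus organizers. They were taken here as every nucleosome call up to 1.1 Mb on chromosome 2 and up to 1.5 Mb on chromosome 4 in each deposited list of calls. The tops held 7677 and 7251 calls of 335395 and 315609 in all in the top1a-2 libraries, which is 2.29% and 2.30%. They held 7283 and 6447 calls of 315744 and 286541 in the Ler libraries, which is 2.31% and 2.25%. The share of calls that fell in the tops therefore overlapped between the genotypes. Over the 4 lists this made 28658 calls of 1253289.

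The study set top1a-2 plants, which carry a mutant allele of the topoisomerase gene TOP1α, against Ler plants, with 2 libraries of each genotype. All 4 libraries are labelled with the Landsberg erecta ecotype, so the mutant allele is the only difference that the labels name. Nuclei from inflorescences with unopened buds were digested with micrococcal nuclease, which cuts the linker DNA between nucleosomes, and the DNA band near the length protected by 1 nucleosome was sequenced. The labels number the libraries but do not say whether they came from separate plant pools, so p-values measure the spread between these libraries, which may be technical.

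A nucleolus organizer is a long tandem array of ribosomal RNA genes, which RNA polymerase I transcribes and around which the nucleolus forms. Many copies of such an array are normally silent and packed in heterochromatin, and an array is hard to place in an assembly because its repeats are nearly identical. Topoisomerase I nicks and reseals 1 DNA strand and so removes the torsion that transcription builds up in DNA.

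Each call has a position, a fuzziness in bp, a size in bp, a confidence score, and forward and reverse votes. Fuzziness is the spread of a call around its position, so a low value is a narrowly placed nucleosome. The lists hold calls and no reads, so the read depth behind a call is unknown. No label or header names the build of the positions, and positions are printed in the coordinates of the lists. Of the genes listed for TAIR10.1, 767 ended beyond the last calls, by up to 439374 bp, so that list was used only for the order of genes. The TOP1α locus was for the same reason not examined in the lists, and the genotype labels have no check of their own here.

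The outermost 50 kb of chromosome 2 stood apart from the rest of both tops in all 4 libraries. This window held 56 and 55 calls in top1a-2 libraries and 55 and 50 calls in the Ler libraries. The other 21 windows of 50 kb in that top held 105 to 169 and 109 to 160 calls in the top1a-2 libraries, and 111 to 161 and 97 to 147 calls in the Ler libraries. The first window therefore lay below every other window of that top in each library. Of the 2336 windows of 50 kb on the 5 chromosomes with at least 5 calls in every library, 37 had a lower mean number of calls. Windows with fewer calls were left out of this rank and of later counts over all windows.

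**Figure D1:**
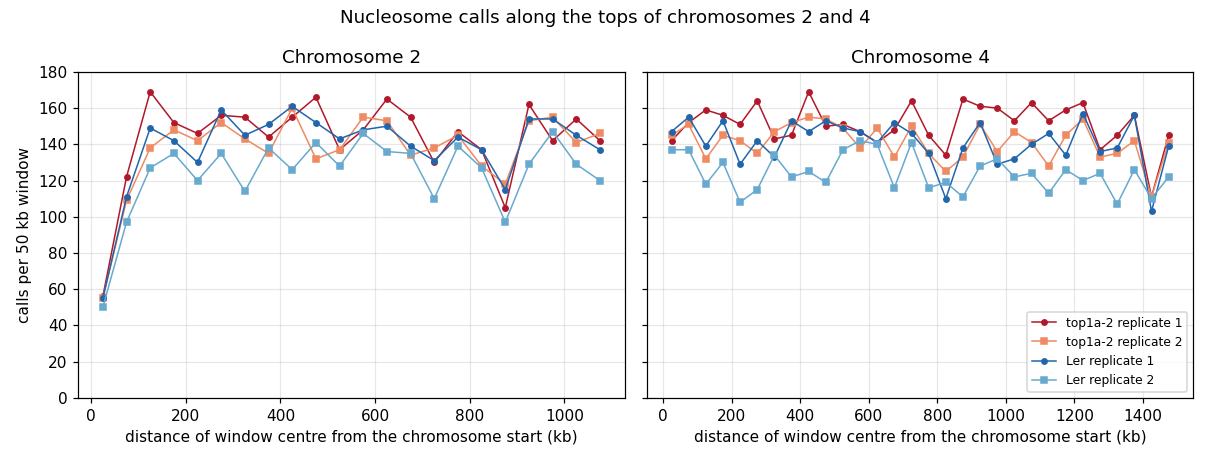
Calls per window of 50 kb (vertical axis) against the distance of the window from the chromosome start in kb (horizontal axis) in the tops of chromosome 2 (left) and chromosome 4 (right), 1 line per library. The first window of chromosome 2 holds 50 to 56 calls in the 4 libraries, and the first window of chromosome 4 holds 137 to 147.

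The few calls of this window were narrow. Mean fuzziness came to 30.4 and 29.5 bp in the top1a-2 libraries and 28.7 and 29.3 bp in the Ler libraries. The mean over the 4 libraries, 29.5 bp, was the lowest of all 2336 windows. Narrow calls, here those whose fuzziness does not exceed 25 bp, made up 35.7% and 40.0% of the window in the top1a-2 libraries, against 43.6% and 36.0% in the Ler libraries. In the other windows of that top the medians of this share were 15.3% and 11.5% in the top1a-2 libraries and 8.97% and 6.67% in the Ler libraries.

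Their sizes and votes were also unlike those of the neighbouring windows. Sizes outside 100 to 200 bp made up 55.4% and 45.5% of the calls in the top1a-2 libraries and 47.3% and 56.0% in the Ler libraries. In the other windows of the chromosome 2 top that share ran from 0 to 20.6%. The vote imbalance is the absolute difference between forward and reverse votes over their sum. Its median in the first window was 0.768 and 0.746 in the top1a-2 libraries and 0.779 and 0.838 in the Ler libraries. In the next window it was 0.295 and 0.309 in the top1a-2 libraries and 0.324 and 0.245 in the Ler libraries. Most calls of the first 50 kb thus had their votes largely on 1 strand in all 4 libraries.

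A handful of calls in the first 12 kb carried very high scores. The first 12 kb of chromosome 2 held 6 and 6 calls with a score of 10 or more in the top1a-2 libraries and 6 and 8 in the Ler libraries. The whole top of chromosome 2 held no further call of that score in any library. In the top of chromosome 4 such calls numbered 2 and 0 in the top1a-2 libraries and 0 in both Ler libraries. Those 2, in top1a-2 replicate 1, lay at 1296150 and 1299648 bp with scores of 10.06 and 14.4. Over all chromosomes calls of that score numbered 717 and 642 in the top1a-2 libraries and 472 and 440 in the Ler libraries. The tops held 1.12% and 0.935% of them in the top1a-2 libraries and 1.27% and 1.82% in the Ler libraries. By count this was below the share of all calls that fell in the tops.

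A call of that score occurred in all 4 libraries at 3 places. The first lay at 3521 and 3470 bp with scores of 70.4 and 41.2 in the top1a-2 libraries, and at 3506 and 3498 bp with scores of 93.1 and 109 in the Ler libraries. The second lay between 5639 and 5662 bp, with scores of 19.0 and 15.2 in the top1a-2 libraries and 15.1 and 23.9 in the Ler libraries. The third, the highest-scoring, lay at 10025 and 10039 bp with scores of 150 and 106 in the top1a-2 libraries, and at 10027 and 9998 bp with scores of 214 and 258 in the Ler libraries. At the third place every Ler score exceeded every top1a-2 score. At that place the sizes were 93.1 and 105 bp in the top1a-2 libraries and 93.0 and 87.8 bp in the Ler libraries, all shorter than the median size of the top.

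The summed score of the first 50 kb of chromosome 2 was 407 and 318 in the top1a-2 libraries and 503 and 545 in the Ler libraries. Both top1a-2 libraries were lower, with a ratio of 0.691 between the means. The exact two-sided permutation p was 0.333, the smallest that 2 libraries against 2 can give, so no genotype comparison of single values here can pass a threshold of 0.05. This window was chosen for its place at the tip, and its score pattern was seen before the ratio was taken. Calls with a score of 10 or more held 82.5% and 85.3% of the summed score in the top1a-2 libraries and 87.3% and 92.7% in the Ler libraries.

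The rest of the window was mostly without calls. Its distances over 1 kb added up to 37068 and 38226 bp in the top1a-2 libraries and 33516 and 34801 bp in the Ler libraries. In the TAIR10.1 gene order the first 20 genes of chromosome 2 include 2 ribosomal RNA genes, AT2G01010 and AT2G01020, 9 pseudogenes and 5 protein-coding genes. Whether these genes lie under the high-scoring calls was not tested, since no source names the build of the lists.

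The outermost 50 kb of chromosome 4 showed none of these features. This window held 142 and 145 calls in top1a-2 libraries and 147 and 137 calls in the Ler libraries and lay within the range of the other 29 windows in each library. Mean fuzziness reached 39.8 and 39.2 bp in the top1a-2 libraries, against 38.7 and 38.1 bp in the Ler libraries. The first 20 genes of chromosome 4 in TAIR10.1 include 18 protein-coding genes and no ribosomal RNA gene.

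**Figure D2:**
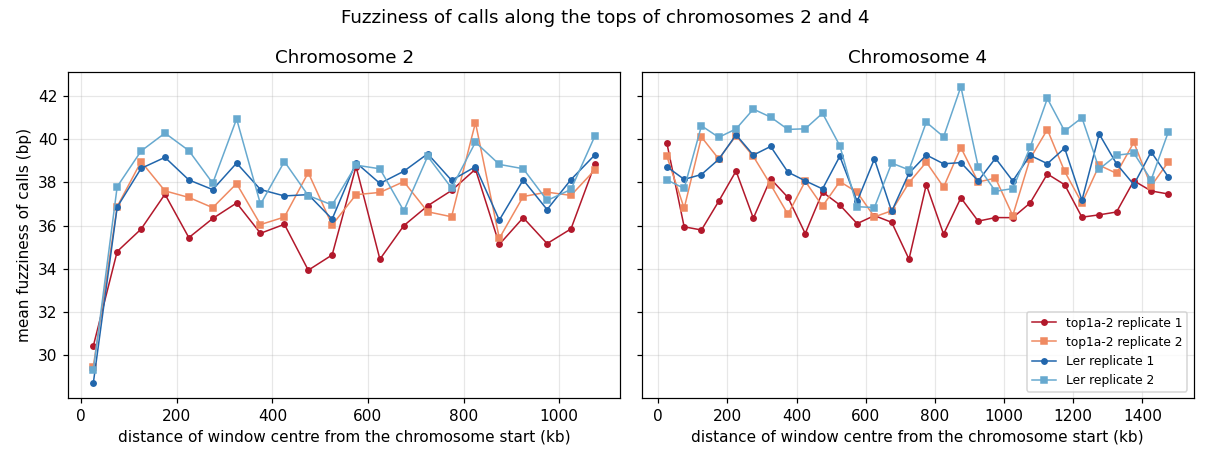
Mean fuzziness of the calls in bp (vertical axis) per window of 50 kb against the distance from the chromosome start in kb (horizontal axis), 1 line per library. The first window of chromosome 2 lies between 28.7 and 30.4 bp in all 4 libraries, and the axis does not start at 0.

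Stretches without a call clustered at the tip of chromosome 2. Distances of more than 1 kb between neighbouring calls numbered 37 and 39 in the chromosome 2 top of the top1a-2 libraries and 32 and 40 in the Ler libraries. The first 100 kb held 18 and 18 of them in the top1a-2 libraries and 16 and 17 in the Ler libraries. On chromosome 4 they numbered 29 and 27 in the top1a-2 libraries and 22 and 33 in the Ler libraries, with 1 at most in the first 100 kb. The counts of the genotypes overlapped on both chromosomes. By window, gap length was greater in both top1a-2 libraries in 5 of 22 windows on chromosome 2 and 1 of 30 on chromosome 4, against 10.2% of all windows.

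Most of the empty sequence in the chromosome 2 top was empty in every library. Stretches that lay in such gaps in all 4 libraries added up to 64301 bp in 45 pieces. A call of any library cuts a stretch, so the pieces are not a count of gaps, and the shortest measured 2 bp. These stretches made up 73.1% and 76.0% of the gap length in the top1a-2 libraries and 88.9% and 77.0% in the Ler libraries. On chromosome 4 they added up to 23235 bp in 20 pieces, which was 50.1% and 56.1% of the gap length in the top1a-2 libraries and 64.2% and 49.8% in the Ler libraries. Gap length found in both top1a-2 libraries and neither Ler library came to 3598 bp on chromosome 2 and 1127 bp on chromosome 4. Gap length found in both Ler libraries and neither top1a-2 library came to 50 bp and 102 bp. These lengths were taken in the tops only, so no length from the rest of the genome stands beside them. By window, gap length was greater in both top1a-2 libraries in 10.2% of all windows and smaller in both in 2.53%. The tops held 0 windows in which it was smaller in both.

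The longest shared stretch was chr2:57847-63916, which had no call in any library. The gaps that contained it measured 7034 and 6222 bp in the top1a-2 libraries and 6098 and 6214 bp in the Ler libraries. The next were chr2:48402-52315, chr4:815682-818993, chr2:890189-893379 and chr2:244296-247429. Deep inside the tops, 3 windows had the longest gaps over 1 kb, of 15113, 10138 and 9731 bp in all as means of the 4 libraries. The window from 850 to 900 kb of chromosome 2 held 105 and 118 calls in the top1a-2 libraries and 115 and 97 in the Ler libraries. The window from 1400 to 1450 kb of chromosome 4, the one with the fewest calls there, held 111 and 111 calls in the top1a-2 libraries and 103 and 110 in the Ler libraries. The window from 800 to 850 kb of chromosome 4 held 134 and 125 calls in the top1a-2 libraries and 110 and 119 in the Ler libraries. The first 2 of these 3 also had the most sizes outside 100 to 200 bp beyond the first window, with means of 16.9% and 12.6% over the 4 libraries.

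On chromosome 2 the window with the most calls, from 600 to 650 kb, held 165 and 153 calls in the top1a-2 libraries and 150 and 136 in the Ler libraries. On chromosome 4 the window from 700 to 750 kb held 164 and 150 calls in the top1a-2 libraries and 146 and 141 in the Ler libraries. The highest mean fuzziness was found from 800 to 850 kb on chromosome 2, at 38.6 and 40.8 bp in the top1a-2 libraries and 38.7 and 39.9 bp in the Ler libraries. On chromosome 4 the highest lay from 1100 to 1150 kb, at 38.4 and 40.5 bp in the top1a-2 libraries and 38.9 and 41.9 bp in the Ler libraries. The lowest on chromosome 4 lay from 550 to 600 kb, at 36.1 and 37.5 bp in the top1a-2 libraries and 37.1 and 36.9 bp in the Ler libraries.

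The windows on both sides of the limits were close in calls. The last window inside the chromosome 2 limit held 142 and 146 calls in the top1a-2 libraries and 137 and 120 in the Ler libraries. Just outside it the next window had 159 and 154 calls in the top1a-2 libraries and 139 and 137 in the Ler libraries. On chromosome 4 the last window inside held 145 and 141 calls in the top1a-2 libraries and 139 and 122 in the Ler libraries. The first outside held 145 and 129 calls in the top1a-2 libraries and 138 and 130 in the Ler libraries.

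The share of calls at matching positions was similar within and between genotypes. In the chromosome 2 top 24.8% of calls had a call within 20 bp in the other top1a-2 library and 22.2% in the other Ler library, as means of both directions. Between a top1a-2 and a Ler library the 4 values ran from 23.7% to 25.9%. In the chromosome 4 top the values were 22.0% within top1a-2 and 22.0% within Ler, and 21.5% to 23.6% between them. These shares follow in part from the density of calls and were not tested.

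To ask whether the tops differ from other chromosome ends, they were set against the last 1.1 Mb of chromosome 2 and the last 1.5 Mb of chromosome 4 within each library. These ends were counted back from the last call in any list, chr2:18241110-19341109 and chr4:16726253-18226252, and annotated genes reach beyond the last calls, so they may not be the outermost sequence of the chromosome. The smallest two-sided p that an exact sign-flip permutation test of 4 libraries can give is 0.125, and over the 30 comparisons of this kind it became 0.179 after Benjamini-Hochberg adjustment. None could therefore pass a threshold of 0.05, and the directions over the 4 libraries are given. Stretches without calls set the chromosome 2 top apart. Gaps over 1 kb covered 7.998% and 7.69% of it in the top1a-2 libraries and 6.58% and 7.60% in the Ler libraries. In the other end they covered 0.124% and 0.222% in the top1a-2 libraries and 0.275% and 0.308% in the Ler libraries. The difference averaged 7.23 ± 0.668 percentage points (SD, n = 4, exact p = 0.125). Without the first and last 50 kb it was 4.16 points.

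The chromosome 4 top had the same direction at a smaller size. Gaps covered 3.09% and 2.76% of it in the top1a-2 libraries and 2.42% and 3.11% in the Ler libraries. In the other end they covered 0.346% and 0.511% in the top1a-2 libraries and 0.202% and 0.571% in the Ler libraries. The difference averaged 2.44 ± 0.251 points and was positive in 4 of 4 libraries (SD, n = 4, exact p = 0.125). It rested on sequence beyond the first 500 kb, since the first and last 500 kb alone gave -0.173 points.

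The calls of the tops were also more narrowly placed than those of the other ends. Mean fuzziness in the chromosome 2 top stood at 36.1 and 37.3 bp in the top1a-2 libraries and 37.9 and 38.3 bp in the Ler libraries. In the other end it was 37.6 and 39.0 bp in the top1a-2 libraries and 39.1 and 39.9 bp in the Ler libraries. The top was lower in 4 of 4 libraries, with a difference of -1.49 ± 0.187 bp as top minus end (SD, n = 4, exact p = 0.125). Without the calls scoring below the lower quartile of their library this difference was -0.382 bp. On chromosome 4 the difference was -0.425 ± 0.252 bp (SD, n = 4, exact p = 0.125), also lower in 4 of 4 libraries, and -0.0247 bp without those calls. Mean fuzziness was likewise lower in the first than in the last megabase of chromosomes 1 and 5 in each library. On chromosome 1 it was 37.0 and 38.9 bp against 38.3 and 39.9 bp in the top1a-2 libraries. In the Ler libraries it was 39.1 and 39.6 bp against 39.3 and 40.5 bp. On chromosome 3 it was lower in each library but Ler replicate 2, with 40.2 against 40.0 bp.

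Narrow calls were more frequent in the chromosome 2 top than in its other end by 4.87 ± 0.614 points and in the chromosome 4 top by 2.14 ± 0.745 points (SD, n = 4, exact p = 0.125 for each). Both were positive in 4 of 4 libraries. Narrow calls were likewise more frequent in the first than in the last megabase of chromosomes 1, 3 and 5 in each library. Close neighbours, here calls less than 200 bp apart, were more frequent in the chromosome 2 top by 3.60 ± 0.748 points in 4 of 4 libraries. On chromosome 4 that difference was 0.987 ± 0.966 points, positive in 3 of 4 libraries (SD, n = 4, exact p = 0.25), and 0.653 points without Ler replicate 1. Removing the calls below the lower quartile of scores cut the narrow-call differences to 1.39 and 0.592 points and the close-neighbour differences to 0.752 and 0.535 points.

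**Figure D3:**
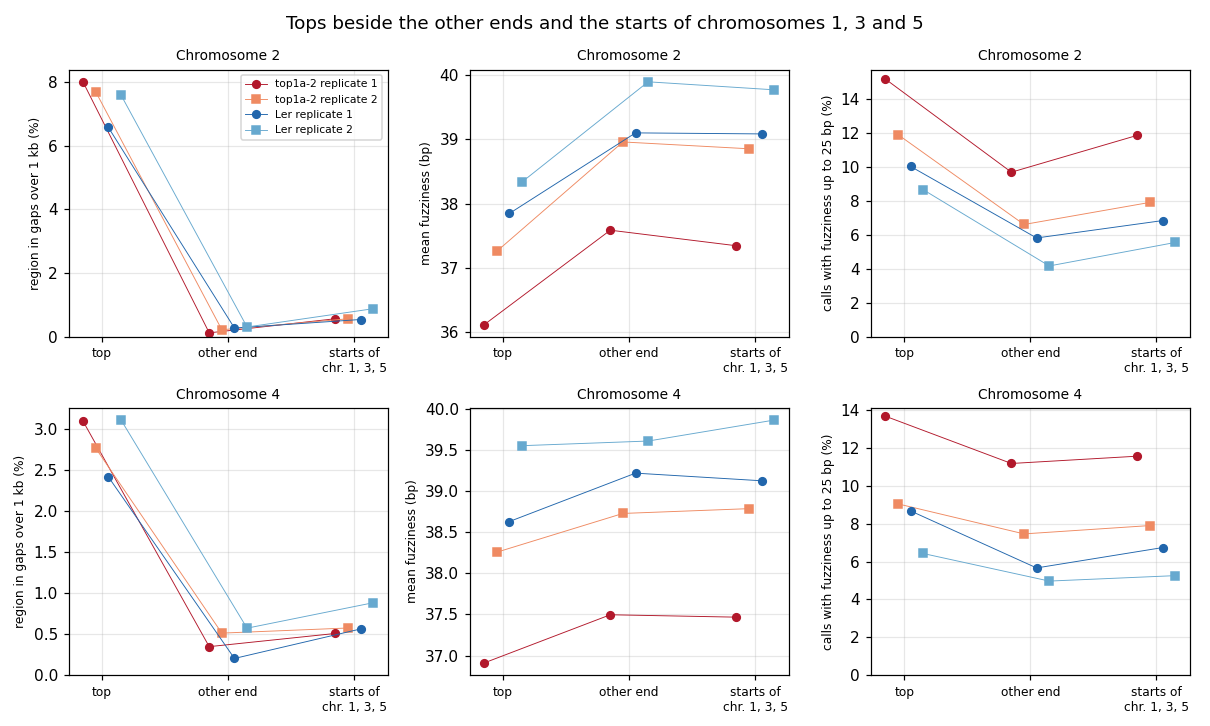
Share of the region in gaps over 1 kb (left, %), mean fuzziness (middle, bp, axis not from 0) and share of narrow calls, of at most 25 bp fuzziness (right, %) in the top, the other end of the same chromosome and the starts of chromosomes 1, 3 and 5 of the same length, for chromosome 2 (upper row) and chromosome 4 (lower row), 1 line per library. The gap share of the chromosome 2 top lies between 6.58% and 7.998%, and that of its other end between 0.124% and 0.308%.

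Call density differed little. The chromosome 2 top had 2.86 and 2.74 calls per kb in the top1a-2 libraries and 2.77 and 2.48 in the Ler libraries. Its other end had 3.11 and 2.86 in the top1a-2 libraries and 2.91 and 2.51 in the Ler libraries. The difference was -0.133 ± 0.0896 calls per kb (SD, n = 4, exact p = 0.125), and -0.0667 without the first and last 50 kb (exact p = 0.25). On chromosome 4 it was -0.0955 ± 0.0345 calls per kb (SD, n = 4, exact p = 0.125) and -0.0125 over the first and last 500 kb alone. The tops were lower in 4 of 4 libraries on each chromosome.

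The starts of chromosomes 1, 3 and 5, which carry no nucleolus organizer, gave the same directions. Against their mean over the same length, the chromosome 2 top differed by -1.37 bp in fuzziness, 6.83 points in gap share and 3.40 points in narrow calls. For the chromosome 4 top these differences were -0.473 bp, 2.21 points and 1.59 points. Each of the 6 had 1 sign in 4 of 4 libraries (exact p = 0.125, adjusted 0.139 over 30 comparisons).

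Scores were low in the chromosome 2 top. Its median score was 0.610 and 0.604 in the top1a-2 libraries and 0.680 and 0.680 in the Ler libraries. In the other end it was 0.700 and 0.726 in the top1a-2 libraries and 0.776 and 0.817 in the Ler libraries. The difference was -0.111 ± 0.0221 (SD, n = 4, exact p = 0.125). On chromosome 4 it was 0.0193 ± 0.0309 against the other end, higher in 2 of 4 libraries, and -0.0706 against the starts of chromosomes 1, 3 and 5, lower in 4 of 4. The mean score was close to 1 on each chromosome, so deposited scores of different chromosomes may not be on 1 scale.

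The genotype difference in these scores depended on how scores are scaled. The mean score was between 1.01 and 1.02 on every chromosome in every library, so the scores of a chromosome add up to about its number of calls. Calls with a score of 10 or more took 22.7% and 20.3% of the summed score of chromosome 2 in the top1a-2 libraries and 10.6% and 10.9% in the Ler libraries. With the score divided by the median of its chromosome, the chromosome 2 top had medians of 0.862 and 0.850 in the top1a-2 libraries and 0.846 and 0.868 in the Ler libraries. The genotypes then overlapped, while the deposited medians did not. Those high-scoring calls numbered 490 and 379 on chromosome 2 in the top1a-2 libraries and 282 and 255 in the Ler libraries, and nearly all lay outside the top.

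**Figure D4:**
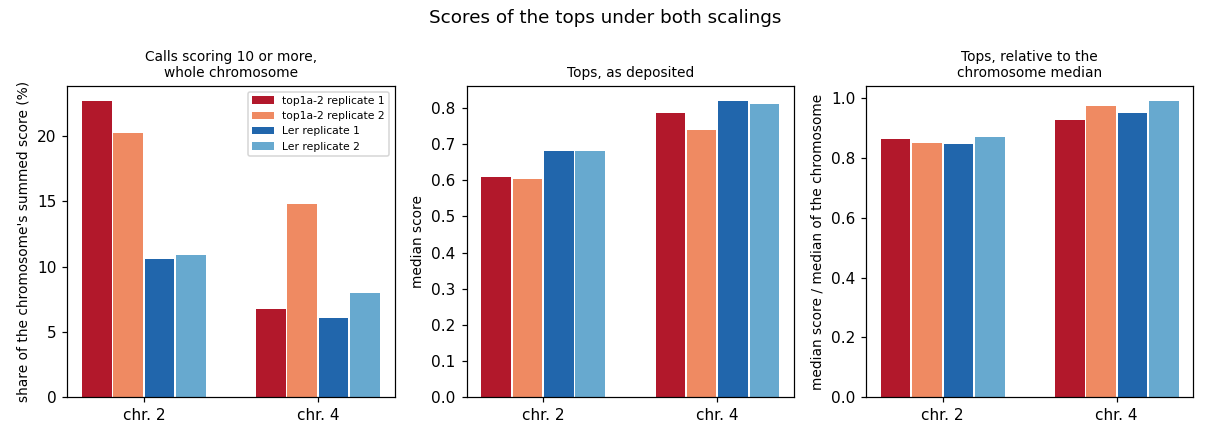
Share of a chromosome's summed score held by calls scoring 10 or more (left, %), median score of the top as deposited (middle) and the same divided by the chromosome's median score (right), 1 bar per library. On chromosome 2 the deposited medians are 0.604 and 0.610 in top1a-2 against 0.680 in Ler, and the divided ones run from 0.846 to 0.868 with both genotypes mixed.

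The same scaling touched the tip. Divided by the chromosome median, the summed score of the first 50 kb of chromosome 2 was 574 and 448 in the top1a-2 libraries and 626 and 695 in the Ler libraries. It remained lower in both top1a-2 libraries, with a ratio of 0.774 between the means (exact two-sided permutation p = 0.333). Windows whose deposited median score was lower in both top1a-2 libraries numbered 14 of 22 in the chromosome 2 top and 9 of 30 in the chromosome 4 top, against 28.6% of all windows. No window of either top was higher in both, against 7.11% of all windows. Relative to the chromosome median the lower windows numbered 2 and 2 and the higher ones 1 and 2, against 14.7% of all windows in each direction. The summed score was lower in both top1a-2 libraries in 10 windows of the chromosome 2 top and 0 of the chromosome 4 top, against 2.53% of all windows, and higher in none of either, against 11.9%. Divided by the chromosome median score, it was lower in 1 and 0 windows, against 0.171% of all windows, and higher in 12 and 21, against 72.3%. Over the whole chromosome 2 top the divided summed score per kb was 3.22 and 3.05 in the top1a-2 libraries and 3.18 and 3.08 in the Ler libraries, which overlapped, while the deposited one was lower in both top1a-2 libraries, at 2.28 and 2.16 against 2.56 and 2.41. In the chromosome 4 top the divided one was 3.16 and 3.06 in the top1a-2 libraries and 2.98 and 2.82 in the Ler libraries, with no overlap. The other ends did not overlap either. That of chromosome 4 had 3.24 and 3.09 in the top1a-2 libraries and 3.01 and 2.82 in the Ler libraries. That of chromosome 2 had 3.38 and 3.28 in the top1a-2 libraries and 3.08 and 2.97 in the Ler libraries.

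Between the genotypes, the calls of the tops were narrower in top1a-2. Mean fuzziness in the chromosome 2 top averaged 36.7 ± 0.807 bp in the mutant and 38.1 ± 0.346 bp in Ler (SD, n = 2 each), a difference of -1.40 bp. On chromosome 4 the top averaged 37.6 ± 0.952 bp in the mutant and 39.1 ± 0.652 bp in Ler (SD, n = 2 each), a difference of -1.51 bp. The genotypes did not overlap in either top (exact permutation p = 0.333, adjusted 0.556 over 30 comparisons). Without top1a-2 replicate 1 the differences were -0.833 and -0.834 bp. With each list cut to the number of calls in the shortest, that of Ler replicate 2, by keeping its highest scores, they were -0.180 bp on chromosome 2, where the genotypes then overlapped (exact permutation p = 1), and -0.707 bp on chromosome 4. The other ends differed in the same direction, by -1.22 and -1.30 bp. The difference between top and end differences was -0.179 bp on chromosome 2 (exact permutation p = 0.667) and -0.206 bp on chromosome 4 (exact permutation p = 1).

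Single windows followed that pattern. Both top1a-2 libraries were below both Ler libraries in mean fuzziness in 15 of 22 windows of chromosome 2 and 19 of 30 of chromosome 4, against 49.6% of all windows. The median difference over windows was -1.39 bp in the chromosome 2 top and -1.54 bp in the chromosome 4 top, against -1.22 bp over all windows. Both were higher in 1 window of each top, and in both cases this was the first 50 kb, against 1.76% of all windows.

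Narrow calls and close neighbours were more frequent in top1a-2. Narrow calls made up 15.2% and 11.9% of the chromosome 2 top in the top1a-2 libraries and 10.0% and 8.66% in the Ler libraries. On chromosome 4 they made up 13.7% and 9.05% in the top1a-2 libraries and 8.67% and 6.42% in the Ler libraries. Distances under 200 bp made up 14.8% and 12.4% on chromosome 2 in the top1a-2 libraries and 11.9% and 8.88% in the Ler libraries. On chromosome 4 they made up 13.9% and 9.71% in the top1a-2 libraries and 9.67% and 6.10% in the Ler libraries. The genotypes did not overlap in any of these 4 comparisons, though top1a-2 replicate 2 and Ler replicate 1 lay within 0.5 points of each other in all but narrow calls on chromosome 2. Single libraries moved the differences by more than 1.5 times. Close distances differed by 3.19 points on chromosome 2, but by 1.66 once Ler replicate 2 was left out and 1.96 once top1a-2 replicate 1 was. The chromosome 4 difference of 3.91 points became 1.82 with top1a-2 replicate 1 left out, 2.13 with Ler replicate 2 left out and 5.997 with top1a-2 replicate 2 left out. Narrow calls differed by 4.19 points on chromosome 2, but by 2.56 once top1a-2 replicate 1 was left out. The chromosome 4 difference of 3.81 points became 1.497 with top1a-2 replicate 1 left out and 6.13 with top1a-2 replicate 2 left out.

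Counted by window, the same directions were about as frequent over the whole genome. Windows with more narrow calls in both top1a-2 libraries numbered 14 of 22 and 12 of 30 in the tops of chromosomes 2 and 4, against 50.6% of all windows. Windows with more close neighbours numbered 8 and 12, against 41.7% of all windows. Windows with a shorter median distance between neighbours numbered 8 and 16, against 42.2%. With equal numbers of the highest-scoring calls, the narrow-call difference became -0.0515 points in the chromosome 2 top and 1.22 points in the chromosome 4 top, and the close-neighbour difference -0.768 and 1.40 points. The genotypes overlapped in all 4 of these. That cut made the lists equally long and also took the lowest-scoring calls out of the longer ones, and the parts of list length and of low scores in these values were not tested.

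The number of calls was compared as well. Calls per kb in the chromosome 2 top were higher in top1a-2 by 0.175, with overlap between the genotypes (exact permutation p = 0.667), and by 0.0264 with Ler replicate 2 left out, 0.116 with top1a-2 replicate 1 left out and 0.323 with Ler replicate 1 left out. In the chromosome 4 top they were 3.02 and 2.82 in the top1a-2 libraries and 2.82 and 2.48 in the Ler libraries; top1a-2 replicate 2 lay just above Ler replicate 1 (exact permutation p = 0.333). That difference of 0.271 calls per kb was 0.101 with Ler replicate 2 left out, 0.172 with top1a-2 replicate 1 left out, 0.441 with Ler replicate 1 left out and 0.039 with equal numbers of the highest-scoring calls. Windows with more calls in both top1a-2 libraries numbered 5 of 22 and 11 of 30 in the tops, against 39.1% of all windows, and none had fewer in both, against 2.01%. With calls divided by the library mean, 2 and 6 windows were higher, against 17.5% of all windows, and 3 and 3 were lower, against 18.3%.

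The windows were also compared with limma, a linear model with a shared estimate of the spread, on all 2336 windows. No window of the tops was past an adjusted p of 0.05 in calls, fuzziness, neighbour distance, size, score or votes. Over all windows limma called 0% for calls, fuzziness, distance and size, 0.128% for score and 0.0428% for votes. At an unadjusted p under 0.05 limma picked 7 of the 52 windows of the tops for fuzziness, all lower in top1a-2, against 12.1% of all windows. For neighbour distance it picked 7, all lower, against 8.52%, and for calls 1 (6.59%), score 2 (6.12%), votes 1 (3.94%) and size 0 (2.48%).

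Named by the smallest limma p, the window from 700 to 750 kb of chromosome 2 had a mean fuzziness of 36.9 and 36.6 bp in the top1a-2 libraries and 39.3 and 39.2 bp in the Ler libraries (adjusted p = 0.412). The window from 800 to 850 kb of chromosome 4 had 35.6 and 37.8 bp in the top1a-2 libraries and 38.9 and 40.1 bp in the Ler libraries (adjusted p = 0.412). Of the windows with a higher value, the smallest p on chromosome 2 fell to the window from 800 to 850 kb, with 0.395 bp (SE 1.12, adjusted p = 0.849), and on chromosome 4 to the first window, with 1.10 bp (SE 0.998, adjusted p = 0.570). The first window of chromosome 2 had a larger difference of 0.947 bp with a larger error (SE 5.69, adjusted p = 0.919). For calls, the window from 200 to 250 kb of chromosome 4 held 151 and 142 in the top1a-2 libraries and 129 and 108 in the Ler libraries, a log2 ratio of 0.18 relative to the library means (SE 0.08, adjusted p = 0.720). The window from 350 to 400 kb of chromosome 2 held 144 and 135 in the top1a-2 libraries and 151 and 138 in the Ler libraries, a log2 ratio of -0.15 (adjusted p = 0.751). The window from 300 to 350 kb of chromosome 2 had a log2 ratio of 0.09 (adjusted p = 0.883), and that from 550 to 600 kb of chromosome 4 had -0.12 (adjusted p = 0.787).

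Votes, given per strand in the lists and summed here, were lower in top1a-2 throughout the tops. The median votes per call in the chromosome 2 top were 0.0795 and 0.0924 in the top1a-2 libraries and 0.130 and 0.161 in the Ler libraries. On chromosome 4 they were 0.110 and 0.121 in the top1a-2 libraries and 0.168 and 0.212 in the Ler libraries. All 52 windows of the tops were lower in both top1a-2 libraries, against 93.9% of all windows. The medians of whole libraries were 0.123 and 0.136 in top1a-2 and 0.183 and 0.218 in Ler. Relative to the chromosome median, the chromosome 2 top had 0.764 and 0.759 in the top1a-2 libraries and 0.760 and 0.783 in the Ler libraries, which overlapped. The chromosome 4 top had 0.881 and 0.915 in the top1a-2 libraries and 0.916 and 0.983 in the Ler libraries, so both top1a-2 libraries stayed lower there, the nearest pair by little (exact permutation p = 0.333). On that scale 5 of 22 windows of the chromosome 2 top and 7 of 30 of the chromosome 4 top were lower in both top1a-2 libraries, against 15.1% of all windows. In each top 1 window was higher in both, against 13.4%.

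Sizes differed between the first and the last megabase of every chromosome, which bears on any contrast of the tops with other ends. The interquartile range of size was larger in the last than in the first megabase in 20 of 20 pairs of library and chromosome, by 1.30 to 2.60 times. Calls under 100 bp made up 2.96% and 3.08% of the chromosome 2 top in the top1a-2 libraries and 3.18% and 2.83% in the Ler libraries. In the other end they made up 4.45% and 3.97% in the top1a-2 libraries and 7.66% and 5.87% in the Ler libraries. The top was lower than the other end in 4 of 4 libraries, with a difference of -2.48 points. Against the starts of chromosomes 1, 3 and 5 it was higher in 4 of 4, with a difference of 2.16 points.

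Calls over 200 bp behaved alike. They made up 1.84% and 1.52% of the chromosome 2 top in the top1a-2 libraries and 1.28% and 1.06% in the Ler libraries. In the chromosome 4 top they made up 1.61% and 1.23% in the top1a-2 libraries and 1.11% and 0.941% in the Ler libraries. Against the other ends the differences were -2.68 and -1.87 points on chromosomes 2 and 4, and against the starts of chromosomes 1, 3 and 5 they were 0.812 and 0.601 points, each with 1 sign in 4 of 4 libraries. Sizes outside 100 to 200 bp were more frequent in both top1a-2 libraries in 8 of 22 and 13 of 30 windows of the tops, against 9.72% of all windows, and less frequent in both in 3 and 1, against 42%. This was not particular to the tops. In the first megabase of chromosomes 1, 3 and 5 such sizes were also more frequent in both top1a-2 libraries. On chromosome 1 they made up 2.42% and 1.41% there in top1a-2 and 1.30% and 1.02% in Ler. In the last megabase of every chromosome they were less frequent in both top1a-2 libraries. Median sizes in the chromosome 2 top were 144.8 and 142.7 bp in the top1a-2 libraries and 144.6 and 142.5 bp in the Ler libraries, so they followed the replicate number rather than the genotype.

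**Figure D5:**
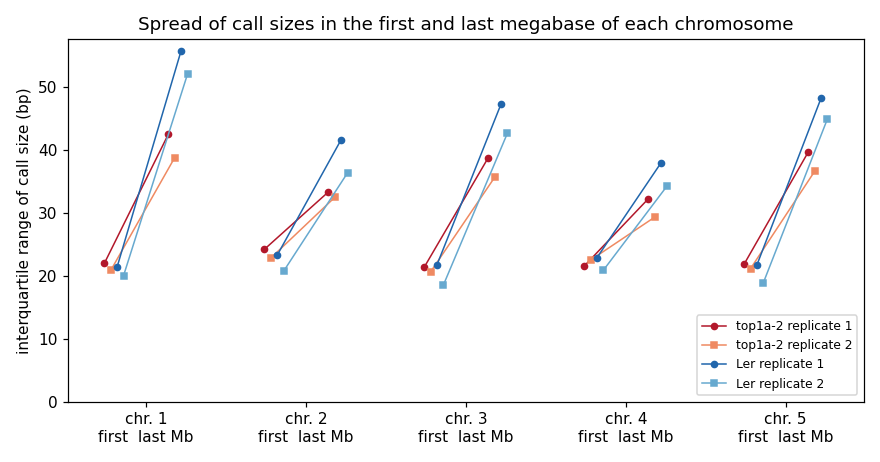
Interquartile range of call size in bp (vertical axis) in the first and last megabase of each of the 5 chromosomes, 1 line per library. Every line rises, by 1.30 to 2.60 times.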

How the data were processed

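Nucleosome calls from 4 libraries were analysed, 2 of top1a-2 and 2 of Ler, grouped by the sample titles and the series' design text. Per the file headers, the authors deposited for each library a list with the position, fuzziness, size, confidence score, forward votes and reverse votes of each call. Per the labels' protocols, nuclei were digested with micrococcal nuclease and the excised band was sequenced on an Illumina HiSeq2000. The aligner, the caller, the build and the number of reads were not given in any label or header read here.

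Calls were assigned to the tops by position. The members and measures were chosen with earlier results of these data known, and 6 of the 15 measures, the scaling by chromosome median and the summed score of the first 50 kb were added after the data were seen. Single values were compared by exact two-sided permutation tests, with Benjamini-Hochberg adjustment over 30 tests of each kind. Windows of 50 kb with at least 5 calls in every library were compared with limma 3.58.1 in R 4.3.3. There calls, scores and votes were taken as log2 of the value over the library mean (calls and score) or median (votes), plus pseudocounts of 0.103, 0.0817 and 0.100. Votes were divided by the median, not the planned mean, since single calls reach 6097180 votes. The windows named are the first, those at the limits, those with the most and fewest calls and the highest and lowest fuzziness, and those with the smallest limma p in each direction. The window from 850 to 900 kb of chromosome 2, the gaps and the high-scoring calls were named after their values were seen. On simulated windows the limma step recovered most changes that had been put in. Those changes were put into calls and fuzziness only and were much larger than any window difference found in the tops. They therefore do not show whether changes of the size found here would be called. Tables were handled with pandas 2.3.3 in Python 3.11.15. Both genotypes have replicates 1 and 2 in the titles, which name nothing shared behind a number, so the numbers were not used as pairs. No column of the lists was left unassigned.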

Additional observations from a re-analysis of the deposited data

Results flagged for a closer look

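In some measures the tops and the other ends, or the first window and the rest of a top, had genotype differences of opposite sign, with every library of 1 genotype above every library of the other in each. Given as top1a-2 minus Ler, the share of the chromosome 2 top in gaps over 1 kb differed by 0.759 points and that of its other end by -0.119 points. The share of sizes over 200 bp differed by 0.514 points in the chromosome 2 top and -2.27 points in its other end, and by 0.394 points in the chromosome 4 top and -1.70 points in its other end. The share of sizes under 100 bp differed by 0.439 points in the chromosome 4 top and -2.58 points in its other end. For each of these 4 the difference of the differences had an exact permutation p of 0.333, the smallest possible, and an adjusted p of 0.952 over 30 comparisons. The starts of chromosomes 1, 3 and 5 did not have that opposite sign in sizes over 200 bp, which made up 0.940% and 0.620% of them in the top1a-2 libraries and 0.532% and 0.370% in the Ler libraries over the length of the chromosome 2 top. Set against those starts, the difference of the differences in sizes over 200 bp was 0.184 points on chromosome 2, in place of 2.79, and 0.146 on chromosome 4, in place of 2.09. In sizes under 100 bp on chromosome 4 it was -0.102 points, in place of 3.02, and in the chromosome 2 gap share 0.905 points, in place of 0.878. The spread of sizes was larger in the last than in the first megabase of every chromosome in every library, and its part in these differences was not tested. Left out singly, Ler replicate 1 cut the chromosome 2 gap-share difference to 0.249 points and Ler replicate 2 raised it to 1.27, and without top1a-2 replicate 1 the chromosome 4 differences were 0.202 points for sizes over 200 bp and 0.282 for sizes under 100 bp.

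Mean fuzziness in the first 50 kb of chromosome 2 was higher in top1a-2 by 0.947 bp, against -1.46 bp in the mean of the other windows of that top. That window held only 50 to 56 calls per library, and the nearest pair was close. Top1a-2 replicate 2 had 29.45 bp and Ler replicate 2 had 29.28 bp. On chromosome 4 it was higher by 1.10 bp in the first window, against -1.62 bp in the others. The share of narrow calls differed by -2.84 points in the first window of chromosome 4, against 4.08 points in the others. Over all windows it was lower in both top1a-2 libraries in 1.46%. These differences between windows were not tested.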

How the results depend on the processing

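Every comparison of the tops in all 15 measures was recomputed. Of 1020 alternative values of 97 results, 915 kept the sign of the value reported, or the count of windows, 93 took the opposite sign and 12 left or reached 0 or changed a count. No single value could pass 0.05 in any setting, so a kept sign is not a kept call. What caused these changes was not tested. In what follows, contrast means the genotype difference in the top minus that in the end.

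With equal numbers of the highest-scoring calls, genotype differences in the chromosome 2 top became -0.214 calls per kb, -0.768 points for distances under 200 bp, 1.69 for distances over 500 bp, -0.0515 for fuzziness up to 25 bp and -0.826 for sizes under 100 bp. In the chromosome 4 top they became 0.038 bp for median size, -0.117 points for sizes under 100 bp and -0.171 for sizes over 200 bp. The contrast on chromosome 2 became -0.593 points for distances under 200 bp, 0.474 bp for fuzziness and -1.18 points for narrow calls, and on chromosome 4 it became 0.000333 calls per kb and 15.5 gaps over 1 kb.

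Without calls below the lower quartile of scores, the genotype difference in the chromosome 2 top was -0.242 bp for median size and -0.0402 points for sizes under 100 bp. The contrast on chromosome 2 was 0.0304 bp for fuzziness, -0.00938 for score, -0.00307 for votes and -5.5 gaps, and on chromosome 4 it was 0.027 calls per kb, 0.100 points for narrow calls, 8 gaps and -0.158 points for gap share. Tops minus ends gave 8.25 bp for median distance and -0.0189 bp for median size on chromosome 2, and -1.5 bp for median distance and 0.00244 for summed score per kb on chromosome 4.

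Against the starts of chromosomes 1, 3 and 5, the chromosome 2 top differed by -0.914 bp in median size, 2.16 points in sizes under 100 bp and 0.812 in sizes over 200 bp. The chromosome 4 top differed by -2.29 bp in median distance, -0.238 bp in median size, -0.0706 in score, -0.0184 in votes, 1.03 points in sizes under 100 bp and 0.601 in sizes over 200 bp. Deposited scores of different chromosomes may not be on 1 scale. The contrast was -0.136 points for distances under 200 bp, 0.307 bp for median size, -0.0401 for score and -0.564 points for sizes under 100 bp on chromosome 2. On chromosome 4 it was 0.00356 calls per kb, 0.0766 points for narrow calls, 3 gaps and -0.102 points for sizes under 100 bp.

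Over the first and last 500 kb, tops minus ends gave -0.963 bp for median size and 0.307 for summed score per kb on chromosome 2. On chromosome 4 it gave -0.257 points for distances over 500 bp, -0.25 gaps, -0.173 points for gap share and 0.0691 for summed score per kb. The genotype difference on chromosome 4 was -1 gaps and -0.179 points for gap share, and the contrast was 0.198 bp for median size on chromosome 2 and 0.017 calls per kb, -1.5 gaps and -0.306 points for gap share on chromosome 4. Without the first and last 50 kb the chromosome 4 contrast was 0.0121 calls per kb and 0.107 points for narrow calls. With sizes of 50 to 250 bp the chromosome 4 genotype difference was -4 gaps and the contrast 2.5. Relative to the chromosome median the chromosome 2 genotype difference in summed score per kb was 0.00132 and the contrast was -0.00302 for score and -0.0345 for votes.

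Leaving out 1 library at a time gave both signs, or 0, for 25 results. Genotype differences in the chromosome 2 top ran from -2 to 6 gaps, -0.86 to 1.23 bp for median size, -0.0294 to 0.0525 for vote imbalance and -0.158 to 0.195 points for sizes under 100 bp. In the chromosome 4 top they ran from -5 to 6 gaps, -0.926 to 0.583 bp for median size, -0.00879 to 0.057 for vote imbalance, -0.182 to 0.512 points for gap share and -0.117 to 0.236 for summed score per kb. The summed score of the chromosome 2 top minus its end ran from -0.0682 to 0.0167. The contrast on chromosome 2 ran from -0.5 to 6.5 gaps, 0 to 19 bp for median distance and -0.0105 to 0.0304 for score. On chromosome 4 it ran from -0.0423 to 0.0417 calls per kb, -2.45 to 0.322 points for distances over 500 bp, -0.864 to 1.42 for distances under 200 bp, -0.971 to 0.586 for narrow calls, -3 to 3 gaps, -0.472 to 0.0598 bp for fuzziness, -10 to 4.5 bp for median distance, -0.0403 to 0.0164 for score, -1.20 to 0.101 bp for median size, -0.00112 to 0.0158 for vote imbalance, -0.0221 to 0.00325 for votes and -0.123 to 0.369 points for gap share.

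The count of windows called in the tops was 1 for distance with no variance trend in limma, and 51, all lower in top1a-2, for votes left as deposited. Calls as deposited shifted the median log2 ratio of all windows to 0.10 and votes to -0.57, and then 3 windows of the tops, all higher, had an unadjusted p under 0.05 for calls. Deviations of libraries with the same number correlated over windows by -0.00974 for size to 0.395 for votes, with 0.308 for score. There were only 2 pairs, and the titles name nothing shared behind a number. What libraries of the same number have in common was not tested. With the replicate block limma called 0 windows of the tops in every measure. The genotype differences kept their values, with an exact p of 0.5, the smallest the block allows, or more.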
